A study of Homo sapiens with 8 samples.

Results

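The regions described here are short stretches of chromatin at the ends of protein-coding genes that gave a ChIP-seq peak under all 4 treatments of a myeloma cell line. Peaks on chromosomes 1 to 22 and X that shared at least 1 bp were merged over the 4 peak lists. A merged region was kept if each list had a peak in it, if it was under 3000 bp wide, and if its midpoint lay within 1000 bp of either annotated end of a protein-coding gene, so the members were chosen by the peak calls of all 4 lists and by the width of those calls. This gave 6187 of 67328 merged regions. Of the 19384 regions with a peak in all 4 lists, a further 10807 were as narrow but lay away from gene ends, and 2390 were broad, 347 of them at gene ends. The cells were OPM-2, an established human myeloma line with the t(4;14) translocation, which places NSD2 and FGFR3 under immunoglobulin enhancers. They were treated for 72 h with DMSO (the solvent), with 1 µM of the retinoid ATRA (all-trans retinoic acid, which binds retinoic acid receptors), with 1 µM pomalidomide (POM, a drug that directs the cereblon ubiquitin ligase to IKZF1 and IKZF3), or with both compounds (ATRA+POM). Each treatment had 1 ChIP library and 1 input library from this single line, so the treatments have no replicate spread and none was tested. The labels call the signal transcription factor binding without naming the factor or the antibody.

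A promoter is the stretch of DNA around the start of a gene where RNA polymerase II is loaded. Promoters of genes that most cells keep active, such as those for ribosomes, the proteasome and Mediator, usually lie in CpG islands and carry short elements for SP and KLF factors (GC box), NFY (CCAAT box), ETS factors, NRF1 and YY1 more often than a TATA box. At an active start the DNA is usually free of nucleosomes, with positioned nucleosomes on either side, and many such promoters serve a pair of genes that run in opposite directions.

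Promoter sequences of 8 genes with a region of this kind are printed below. They are the 250 bases upstream of the start in RefSeq (GRCh38.p14), written 5′ to 3′ on the strand of the gene. Capitals mark exact matches, on either strand, to the CCAAT box, the GC box, the core of the cAMP response element, the E-box, the interferon-stimulated response element (ISRE), and the ETS, NRF1 and YY1 motifs. The ISRE was searched as TTTCNNTTT, the GC box as GGGCGG and the cAMP response core as TGACG, which 8.83%, 56.3% and 27.9% of all promoters hold. The E-box was searched as CACGTG, which 8.34% hold. DPAGT1, FEN1 and MAU2 are shown as the genes at the 3 most enriched regions, and HSPA5, CD38 and NSD2 as genes of plasma cell and myeloma biology. H2AX and IFIT1 were added after their values were seen, for regions whose rank differed between lists. The other promoters were printed only if they held a motif match, so the presence of a match in them follows from that choice.
DPAGT1 (chr11:119101854-119102103, minus strand): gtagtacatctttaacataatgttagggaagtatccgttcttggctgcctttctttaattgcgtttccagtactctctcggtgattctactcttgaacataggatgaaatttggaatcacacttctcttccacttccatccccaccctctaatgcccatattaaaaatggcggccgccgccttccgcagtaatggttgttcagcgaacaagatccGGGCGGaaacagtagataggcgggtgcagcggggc
FEN1 (chr11:61792661-61792910, plus strand): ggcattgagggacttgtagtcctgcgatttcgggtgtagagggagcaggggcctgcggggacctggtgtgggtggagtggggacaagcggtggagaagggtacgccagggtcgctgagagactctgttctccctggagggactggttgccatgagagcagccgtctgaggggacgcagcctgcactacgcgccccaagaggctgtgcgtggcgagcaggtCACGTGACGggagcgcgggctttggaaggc
MAU2 (chr19:19320579-19320828, plus strand): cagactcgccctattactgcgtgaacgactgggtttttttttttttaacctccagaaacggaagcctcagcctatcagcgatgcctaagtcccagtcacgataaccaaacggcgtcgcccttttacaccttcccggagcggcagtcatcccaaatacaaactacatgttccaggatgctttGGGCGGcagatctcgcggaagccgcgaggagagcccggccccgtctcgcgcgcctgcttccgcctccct
HSPA5 (chr9:125241344-125241593, minus strand): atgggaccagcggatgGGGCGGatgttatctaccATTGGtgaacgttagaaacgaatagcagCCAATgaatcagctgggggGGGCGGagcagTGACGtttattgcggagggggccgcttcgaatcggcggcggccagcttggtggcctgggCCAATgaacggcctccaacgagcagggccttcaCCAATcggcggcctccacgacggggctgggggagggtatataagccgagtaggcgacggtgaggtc
CD38 (chr4:15778078-15778327, plus strand): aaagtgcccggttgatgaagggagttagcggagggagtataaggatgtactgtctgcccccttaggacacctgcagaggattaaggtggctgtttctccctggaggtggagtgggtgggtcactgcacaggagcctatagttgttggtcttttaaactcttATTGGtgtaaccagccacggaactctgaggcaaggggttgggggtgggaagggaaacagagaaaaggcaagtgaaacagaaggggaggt
NSD2 (chr4:1871143-1871392, plus strand): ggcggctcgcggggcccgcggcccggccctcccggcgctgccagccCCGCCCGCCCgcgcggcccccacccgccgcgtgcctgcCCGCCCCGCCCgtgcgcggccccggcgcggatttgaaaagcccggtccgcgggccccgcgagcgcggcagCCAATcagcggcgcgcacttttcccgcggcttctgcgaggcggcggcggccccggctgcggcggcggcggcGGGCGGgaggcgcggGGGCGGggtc
H2AX (chr11:119095466-119095715, minus strand): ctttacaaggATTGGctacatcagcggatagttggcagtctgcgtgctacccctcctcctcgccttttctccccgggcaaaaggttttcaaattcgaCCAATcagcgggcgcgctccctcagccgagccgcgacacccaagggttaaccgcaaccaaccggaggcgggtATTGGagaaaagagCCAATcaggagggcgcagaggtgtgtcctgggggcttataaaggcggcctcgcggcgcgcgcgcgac
IFIT1 (chr10:89392373-89392622, plus strand): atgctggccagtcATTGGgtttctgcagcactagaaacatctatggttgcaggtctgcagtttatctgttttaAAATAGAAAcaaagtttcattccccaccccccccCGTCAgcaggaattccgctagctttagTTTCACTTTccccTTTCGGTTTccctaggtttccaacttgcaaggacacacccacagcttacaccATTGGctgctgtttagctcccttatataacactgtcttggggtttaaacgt

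The elements differed widely between these 8 stretches. With the start counted as 0, DPAGT1 had a single GC box at -35 and MAU2 one at -69, while FEN1 had an E-box at -30 that overlaps a TGACG match at -26. HSPA5 held 4 CCAAT boxes (at -216, -188, -99 and -66), and H2AX held 4 as well (at -240, -153, -81 and -67). IFIT1 held 3 ISRE matches, at -177, -116 and -103, beside 2 CCAAT boxes. CD38 had 1 CCAAT box at -89 and NSD2 had 6 GC boxes with 1 CCAAT box at -96. The stretches of DPAGT1, FEN1, MAU2 and CD38 lie wholly inside their regions, those of NSD2 and H2AX wholly outside, and those of HSPA5 and IFIT1 for the most part outside.

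The library labelled ATRA stood apart from the others and is called ATRA-labelled here. The lists held 36742 (ATRA-labelled) to 54279 (POM) peaks, and the reads under the strongest summit of the regions, recovered from the authors' fold enrichment and p-value, had medians of 187 (DMSO), 27 (ATRA-labelled), 155 (POM) and 73 (ATRA+POM). Without the ATRA-labelled list the same rule gave 7167 regions. Fold enrichment is the authors' value for each peak against the local background of its own library and was not scaled between libraries, so values of several lists set side by side carry no direction. For comparison, regions were ranked by fold enrichment among the same 19384 regions in each list (percentile rank, 100 = most enriched), and a difference of at least 25 points between 2 lists was counted as a shift. Because fold enrichment is a ratio to local background, a rank can rise without more reads at the summit.

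The gene-end regions were of middling strength. Their median fold enrichment, with the binomial 95% interval of the median over regions, was 22.3 (22.0 to 22.7) for DMSO, 13.7 (13.5 to 13.9) for the ATRA-labelled list, 23.3 (22.8 to 23.7) for POM and 11.3 (11.1 to 11.6) for ATRA+POM. The median percentile rank was 51.6, 46.8, 50.8 and 44.7 in the same order, against 40.8, 43.8, 41.0 and 45.3 for narrow regions away from gene ends and 86.0, 84.3, 84.1 and 79.8 for broad regions at gene ends. Gene-end regions thus ranked above the narrow distal ones in the DMSO, ATRA-labelled and POM lists and about level with them in the ATRA+POM list. They were 195 to 2996 bp wide with a median of 1085 bp and covered 7.40 Mb together.

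**Figure D1:**
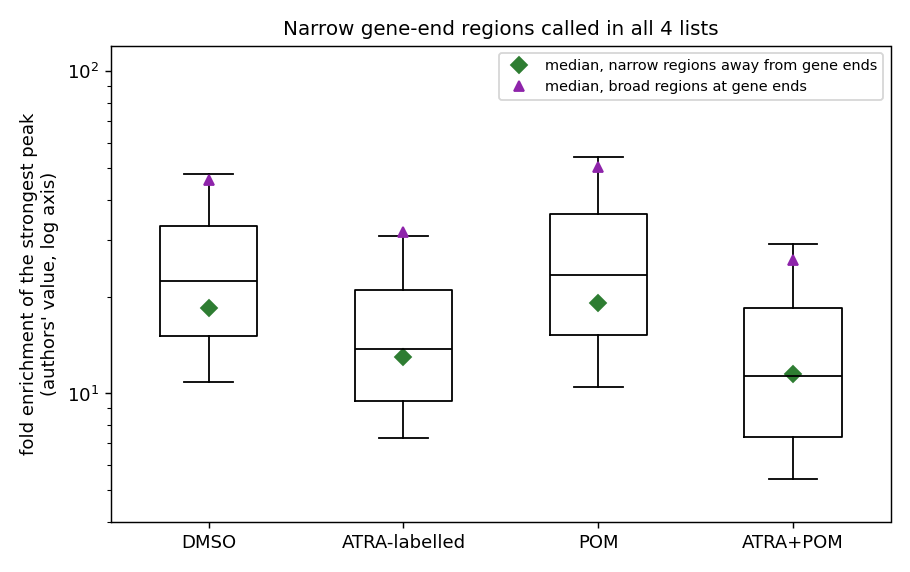
Fold enrichment of the strongest peak of the 6187 narrow gene-end regions in each list, on a log axis. Boxes give the quartiles and the median, whiskers the 10th and 90th percentiles, and diamonds and triangles are the medians of narrow regions away from gene ends and of broad regions at gene ends. The box medians lie at 22.3, 13.7, 23.3 and 11.3, and the broad regions lie above the upper quartile in each list.

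The 10 regions named first here were picked for the highest lowest rank over the 4 lists. Their high rank in each list follows from that choice. The region at the start shared by DPAGT1, which begins N-glycan synthesis, and C2CD2L (chr11:119100480-119103301, hg38) had fold enrichments of 186 (DMSO), 158 (ATRA-labelled), 241 (POM) and 139.9 (ATRA+POM). FEN1, the flap endonuclease of DNA replication, with TMEM258 (chr11:61791605-61794139) had 177, 105, 260.2 and 183. MAU2, a cohesin loader, with SUGP1 (chr19:19319782-19321934) had 131, 131, 308 and 248. The lowest rank of these 3 regions in any list was 99.9. NUDT5 with CDC123, PRDM10, TM9SF4, FLCN, LSG1, TTI2 and SNRNP35 completed the 10 with the highest lowest rank. At the other end, EXOSC2, a subunit of the RNA exosome (chr9:130693265-130693585), had 6.34, 5.87, 5.70 and 4.36, and its ranks lay between 2.05 and 4.93. ADAM28, DDX49 and UQCR11 ranked at 5.32 or below in each list.

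Summits of different lists often lay close together. The rule joined overlapping peaks into regions under 3000 bp wide, which in itself limits the distance between summits. The strongest summits of 2 lists lay a median of 24 bp (POM and ATRA+POM) to 43 bp (ATRA-labelled and ATRA+POM) apart, and in 3372 regions (54.5%) all 4 summits lay within 100 bp. Between 53.7 and 66.6% of the regions had the summits of a pair of lists within 50 bp, and narrow regions away from gene ends had median distances of 20 to 44 bp. Spearman's rho of fold enrichment over the 6187 regions, given as a description, was 0.815 between DMSO and the ATRA-labelled list, 0.765 between POM and ATRA+POM and 0.645 to 0.700 for the other 4 pairs. Narrow regions away from gene ends had a higher rho for DMSO and the ATRA-labelled list (0.866) and a lower one for DMSO and POM (0.537). These regions share base composition and local background between lists, which a correlation cannot separate from the signal. Regions with 2 or more peaks made up 7.05% (DMSO), 33.5% (ATRA-labelled), 16.1% (POM) and 29.5% (ATRA+POM), and 3313 regions had a single peak in each of the 4 lists.

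Most regions were at the start of the gene and not at its end. Of 5252 regions whose nearest gene has a strand in the promoter table, the nearest end was the start for 94.8% (95% Wilson interval 94.2 to 95.4). A coding start of the promoter table lay within 1000 bp of the midpoint in 5047 regions. Another 237 had no start of that table so near, and 16 had only a start that is not of a protein-coding gene. The remaining 887 lay at a gene without a strand in that table and were not placed. The 237 include the region at the end of KCTD2 (chr17:75065017-75067004) and one at the end of UTRN (chr6:144852542-144854179). They also include one 243 bp from the annotated start of MAOA. The start of a second gene in the opposite direction lay in the same window for 715 of the 5047 (14.2%, 13.2 to 15.2), from 11.9% (10.2 to 13.8) of the 1262 with the lowest mean rank to 16.9% (14.9 to 19.0) of the 1262 with the highest. Of all 6187 regions, 1145 lay at the ends of 2 genes and 64 at 3 or more, with 4 genes at SLX4IP (with MKKS and 2 loci without a gene name), and 3 at each of a pair of regions between BRCC3, CMC4 and MTCP1.

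Summits were scarce at the start itself. Within 50 bp of the start lay 1.68% (DMSO), 1.60% (ATRA-labelled), 1.43% (POM) and 1.49% (ATRA+POM) of the strongest summits, against 4.58% of region midpoints. They gathered on both sides. From 51 to 200 bp downstream lay 25.04, 21.0, 18.6 and 20.6% of the summits, and from 150 to 500 bp upstream 34.3, 33.2, 32.5 and 32.6%. The fullest bin of 50 bp, 100 to 150 bp into the gene, held 636 DMSO, 499 ATRA-labelled, 414 POM and 457 ATRA+POM summits, whereas the bin from 50 bp upstream to the start held 22, 18, 24 and 15. Peaks on both sides of the start of the same gene were called in 227 (4.50%), 906 (17.95%), 491 (9.73%) and 853 (16.9%) of the 5047 regions, which follows the order of the share of regions with 2 or more peaks. This double-sided pattern was present in each of the 4 lists, and how the depth and the peak calls of each library set the number of peaks per region was not tested.

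**Figure D2:**
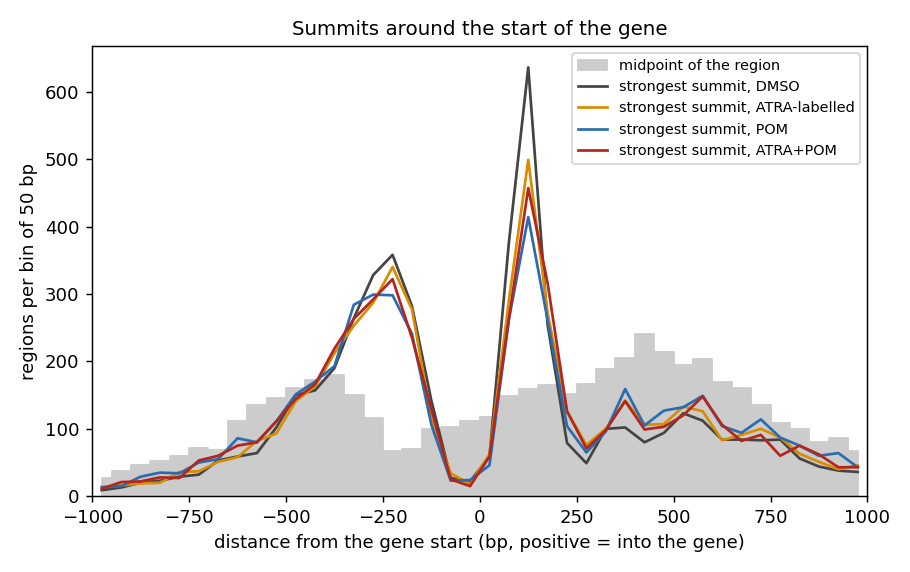
Distance of the strongest summit of each list (lines) and of the region midpoint (grey) from the gene start, for the 5047 regions within 1000 bp of a coding start, in bins of 50 bp. Each of the 4 lines has a trough at the start, a sharp maximum 100 to 150 bp downstream (636 regions with DMSO) and a broader one upstream, while midpoints are spread more evenly.

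The promoters at these regions were CpG-rich. The RefSeq table gave 300-bp promoters (250 bases before to 50 after the start) for 4449 starts at these regions, 22131 coding starts in all and 9709 coding starts with no peak within 5000 bp. The median ratio of observed to expected CpG was 0.866 at the regions, 0.738 over all starts and 0.442 at starts with no peak, and the median GC content was 64.3, 62.3 and 58.0%. A CpG ratio over 0.6 was found for 91.3, 62.2 and 40.1% of the starts.

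Matches to the elements of housekeeping promoters were more frequent at the regions than over all starts. The ETS motif CCGGAAG was found in 26.6% (Wilson 25.3 to 27.9), against 12.8% of all promoters of the same length and 4.84% of those with no peak. The YY1 motif AAGATGGCG was found in 6.34% (5.66 to 7.09), against 2.42 and 0.391%, and the NRF1 motif GCGCATGC in 6.92% (6.21 to 7.71), against 3.74 and 1.61%. GC boxes (GGGCGG) were found in 71.0, 56.3 and 42.4% and CCAAT boxes in 40.1, 34.6 and 32.8%. At the 1215 starts with a summit inside the 300-bp window these 2 were at 59.9 and 35.1%, so that their excess over all starts shrank from 14.8 to 3.63 points for the GC box and from 5.46 to 0.509 for the CCAAT box. Matches ran the other way for the TATA box TATAAA (4.77, 9.46 and 13.9%), the AP-1 motif TGANTCA (3.44, 6.15 and 8.35%) and the nuclear receptor site AGGTCA (9.40, 11.9 and 14.3%). The ETS, YY1, NRF1 and GC box motifs hold CG, and the part of CpG content in these shares was not tested. The YY1 match lay at a median of 11 bp after the start, where YY1 is known to bind, the ETS match at -45 and the CCAAT match at -97. At promoters shared by 2 divergent genes (712 starts) ETS matches reached 32.02% (28.7 to 35.5) and TATA matches were found in 2.95% (1.94 to 4.47), against 25.5 and 5.15% at 3748 starts without such a partner.

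**Figure D3:**
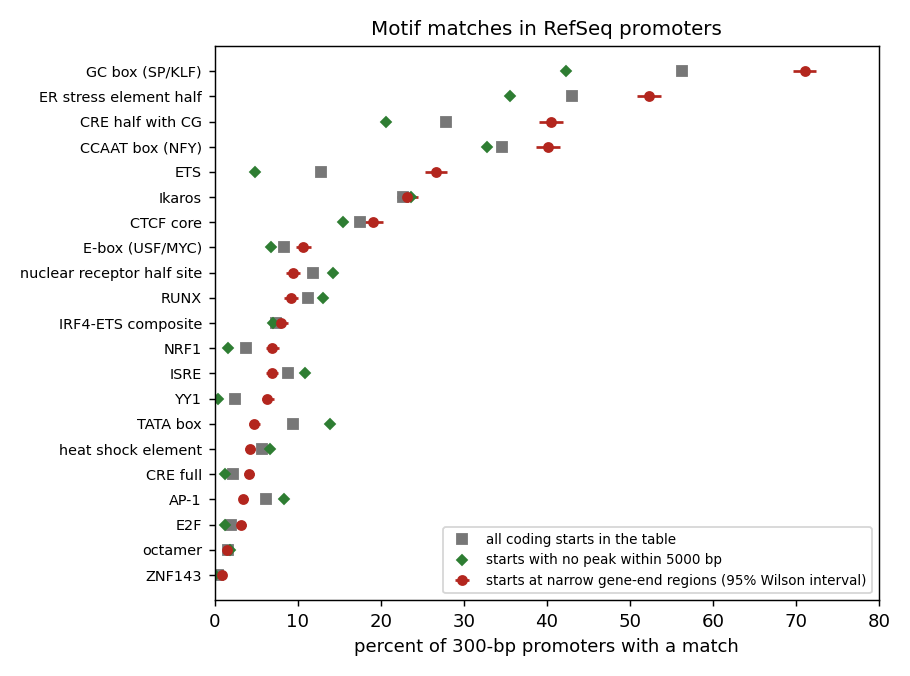
Percent of 300-bp RefSeq promoters with a match to each motif searched, for starts at narrow gene-end regions (circles with Wilson intervals), all coding starts (squares) and starts with no peak within 5000 bp (diamonds). ETS matches lie at 26.6% for the regions against 12.8% for all starts, while TATA and AP-1 matches lie to the left of both other groups.

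Genes of several complexes that every dividing cell uses had such a region more often than genes at large. A region lay at 6050 of 19970 protein-coding genes (30.3%), and 1341 of these genes had 2 or more. The share was 20.5% on chromosome 21 and 35.7% on chromosome 14, with the other chromosomes between them. Of the lists of gene function, the highest shares were 28 of 30 genes of Mediator (the bridge between factors and RNA polymerase II), 29 of 37 of respiratory complex I, 31 of 40 of the mitochondrial ribosome, 24 of 31 translation initiation factors and 23 of 30 of RNA polymerase II with its general factors. The spliceosome (24 of 32), DNA replication and cell cycle (27 of 38), the proteasome (22 of 31), the tRNA synthetases (14 of 20), the large ribosomal subunit (28 of 43) and the secretory pathway with the unfolded protein response (21 of 34) also stood above 30.3%. Chromatin remodelers and writers had 20 of 34, the NF-kB pathway 10 of 20 and the factors that bind housekeeping promoters 9 of 20. No list was drawn up without knowledge of these data, and a gene whose only region is broad is not counted.

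Within these complexes single regions differed widely in strength. PSMC5, an ATPase of the proteasome, had fold enrichments of 135, 96.5, 133 and 144 in the order DMSO, ATRA-labelled, POM and ATRA+POM. RPL19 of the large ribosomal subunit had 169, 105, 275 and 68.2, and MED25 of Mediator 96.9, 65.4, 86.0 and 36.0. Each of these 3 ranked at 89.2 or higher in each list. MED12 of the Mediator kinase module, in contrast, had 14.1, 8.46, 12.1 and 6.57, and PSMB6, a catalytic proteasome subunit, 9.61, 7.19, 18.4 and 6.38. Genes that face each other shared a region, as MED22 did with RPL7A, and were counted in both lists.

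Of 16 plasma cell genes, 3 (18.8%, against 30.3% of all genes) had such a region: CD38, GPRC5D and CD27. With a limit of 3000 bp from a gene end the list had 6 of 16 and all genes 7198 of 19970, the T cell list 1 of 10 and the factors of housekeeping promoters 15 of 20. At 1000 bp the early B cell genes had 2 of 11 (BCL6 and CIITA). The region counted for CIITA had the start of the neighbouring gene DEXI, 252 bp away, as its nearest gene end. None of the 10 T cell, 10 myeloid, 10 hepatocyte or 10 neuron genes had a narrow gene-end region. Interferon-stimulated genes had 9 of 30, retinoid receptors and cofactors 5 of 22, antigen processing with HLA genes 4 of 24, the cereblon list 8 of 17 and the BCL2 family 5 of 16. SDC1 (CD138), TNFRSF17 (BCMA), PRDM1, IKZF1, RARA and RARB had no merged region with its midpoint within 1000 bp of an end. The region nearest to an end came from 2 lists at IRF4, CRBN, RIGI and RXRA. At XBP1 (10313 bp), IKZF3 (7747 bp) and MYC (3080 bp) it came from all 4 lists and was too wide. RXRA and IKZF3 each had 2 regions at their ends, and the farther one is not described here. In the plasma cell list, then, the defining genes SDC1, TNFRSF17 and PRDM1 had no region with its midpoint in this window, and XBP1 had a broad one. A region that covers a gene end but has its midpoint farther away is not counted by this window.

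CD38, an ectoenzyme and antibody target on plasma cells, had a region across its start (chr4:15777904-15780293) with fold enrichments of 19.8, 11.9, 30.3 and 29.7 in the order DMSO, ATRA-labelled, POM and ATRA+POM. It ranked at 44.9, 38.5, 63.5 and 84.3, so that the ATRA+POM list placed it 39.4 points above DMSO and 45.8 above the ATRA-labelled list. NSD2, the histone methyltransferase gene at the t(4;14) breakpoint, had a region just downstream of its annotated start (chr4:1871698-1872596) with 18.4, 8.99, 12.8 and 6.19, and its ranks were 40.6, 23.3, 23.7 and 16.4. HSPA5, the endoplasmic reticulum chaperone BiP, had a region on either side of its start, with ranks of 35.4, 38.6, 31.1 and 18.8 upstream and 8.42, 33.9, 40.7 and 16.6 downstream. CCND3, a D-type cyclin, had 48.8, 15.3, 16.5 and 6.78, and its rank was 88.0 with DMSO and 52.7, 34.2 and 20.5 in the other 3 lists.

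Most regions kept their place across the lists, and a higher rank was less frequent at gene ends than over all regions in each of the 5 comparisons. From DMSO to POM 599 regions (9.68%) ranked at least 25 points higher and 645 (10.4%) ranked lower, while the background over all 19384 regions was 13.7% and 13.5%. For ATRA+POM set against DMSO, 469 were higher and 1014 lower (7.58 and 16.4%), against 15.2 and 14.8% of all regions. From POM to ATRA+POM 218 were higher and 760 lower (3.52 and 12.3%), against 9.01 and 8.75%. From the ATRA-labelled list to ATRA+POM 659 were higher and 796 lower (10.7 and 12.9%), against 15.7 and 15.5%. From DMSO to the ATRA-labelled list 206 were higher and 599 lower (3.33 and 9.68%), against 3.92 and 5.58%. Lower ranks outnumbered higher ones at gene ends in all 5 comparisons, by the least from DMSO to POM, while narrow regions away from gene ends had 20.7% higher and 14.9% lower for ATRA+POM against DMSO.

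**Figure D4:**
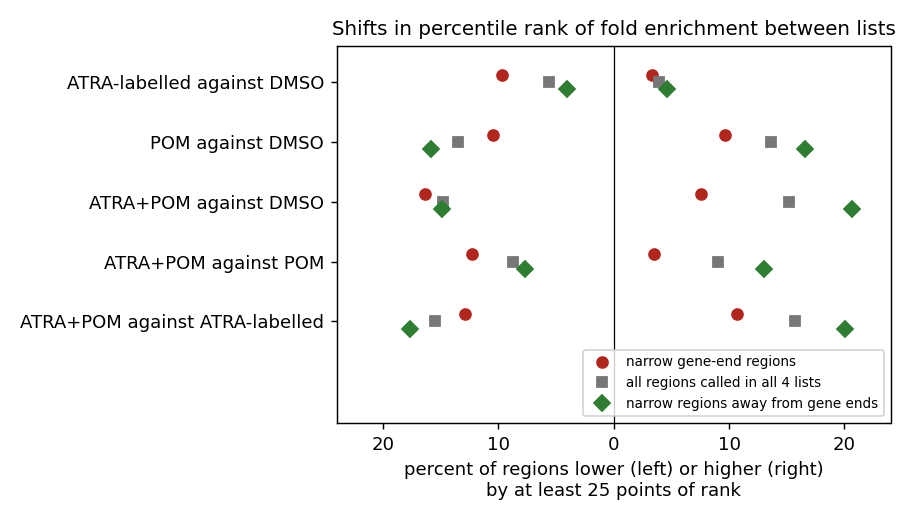
Percent of regions whose percentile rank of fold enrichment was at least 25 points lower (left of 0) or higher (right of 0) in the first list named than in the second. Circles are the 6187 narrow gene-end regions, squares the 19384 regions called in all 4 lists and diamonds the 10807 narrow regions away from gene ends. For ATRA+POM against POM the circles lie at 12.3% lower and 3.52% higher.

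The balance of higher and lower ranks depended on what the regions were ranked among. When they were ranked among gene-end regions alone, 836 were higher and 826 lower for ATRA+POM against DMSO, 563 and 625 for ATRA+POM against POM, and 471 and 509 for the ATRA-labelled list against DMSO. That ranking centres the group, so its near-equal counts follow from its construction. Ranking by −log10 q in place of fold enrichment left 239 higher and 653 lower for ATRA+POM against DMSO, 48 and 351 for ATRA+POM against POM, and 60 and 84 for the ATRA-labelled list against DMSO. With regions called in the 3 other lists, without the ATRA-labelled one, the regions and the set they were ranked among both changed. There 446 were higher and 784 lower for POM against DMSO. The counts were 365 and 1471 for ATRA+POM against DMSO, and 238 and 936 for ATRA+POM against POM. For these counts and those by −log10 q the share over all regions is not given, so they have no background beside them.

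Single gene ends ranked low with DMSO and high with POM. The region at the end of KCTD2 had fold enrichments of 12.4 (DMSO), 7.19 (ATRA-labelled), 78.5 (POM) and 44.0 (ATRA+POM), with 74, 11, 495 and 200 reads at the summit. UTRN, the utrophin gene, had 8.47, 6.48, 42.5 and 29.3 at its end. DDX60L, a relative of an antiviral helicase, had 12.3, 6.81, 41.2 and 32.4 at its start (chr4:168480025-168481727). At these 3 genes both lists with POM ranked the region at 76.7 or above and both lists without it at 20.5 or below. All 3 were among the 5 largest gains in rank from the ATRA-labelled list to ATRA+POM, so the contrast between those 2 lists follows from that choice. PGM2 (8.74, 7.49, 56.6 and 9.83) and GPR146 (8.31, 8.04, 53.0 and 22.9) had the largest gains in rank from DMSO to POM, 79.8 and 79.2 points, and of these 2 GPR146 ranked high with both compounds (75.6).

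Other gene ends ranked low in both lists with POM. The region between CA11 and DBP, a circadian transcription factor (chr19:48637723-48638337), had 40.6, 41.4, 3.32 and 3.42, with 572, 114, 31 and 24 reads. Its ranks were 81.5 and 91.3 without POM and 0.299 and 1.35 with it. BEND6 with DST (46.6, 28.3, 9.90 and 6.02) and AIG1 (36.3, 26.7, 5.07 and 6.72) were also lower in both lists with POM by rank. The regions at CA11, BEND6 and AIG1 were picked from the 5 largest losses of rank from DMSO to POM. Among the tRNA synthetases, which charge tRNAs with amino acids, 4 of 14 ranked lower by 25 points with POM than with DMSO and 2 higher (13.5 and 13.7% of all regions), and the list's median difference was -1.89 against -0.262 over all regions. NARS1 had 47.8, 38.2, 14.4 and 8.56, SARS1 42.0, 31.8, 13.9 and 10.6, and IARS1 42.0, 35.1, 20.0 and 9.12. These 3 ranked at 82.7 or above in both lists without POM and at 43.3 or below in both lists with it, whereas YARS1 ranked at 91.8 or above in each list.

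The DMSO-to-POM and ATRA-labelled-to-ATRA+POM comparisons share no library. Of the 599 regions that ranked higher with POM alone 181 (30.2%) were also among the 659 higher with POM on top of ATRA (27.5% of those), and of the 645 lower ones 186 (28.8%) were among the 796 (23.4%). Over all regions called in all 4 lists the same shares were 52.2 and 45.5% for higher and 48.7 and 42.5% for lower, and the difference from the gene-end regions was not tested.

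Of 9 interferon-stimulated genes with such a region, 4 ranked at least 25 points higher with POM than with DMSO and 1 lower, where 13.7 and 13.5% of all regions did. With ATRA+POM 5 were higher and none lower than with DMSO, where 15.2 and 14.8% of all regions were. The list's median difference was 22.1 and 27.5 points, against -0.262 and -0.717 over all regions, and 3.36 from DMSO to the ATRA-labelled list. IFIT1, a cap-binding inhibitor of viral translation (chr10:89391782-89392414), had 8.57, 7.07, 25.5 and 12.9, with ranks of 6.97, 10.3, 55.5 and 50.9. IFIH1, the RNA sensor MDA5, had 15.8, 14.0, 50.3 and 22.1, and IFIT5 12.4, 9.25, 28.9 and 18.8. All 3 ranked at 50.9 or above in both lists with POM and at 47.9 or below in both without. MX2, an antiviral GTPase, ranked at 61.1 with POM and at 8.42 with ATRA+POM, and OASL ranked at 66.8 with DMSO and at 23.9 with POM. The 3 ISRE matches of the IFIT1 sequence printed above lie outside the region of that gene, and its strongest DMSO summit lay 418 bp upstream of that start. Over all the promoters of the regions, ISRE matches were at 6.90% (6.19 to 7.68), below the 8.83% of all starts. They were at 6.25% of the starts that ranked higher with POM than with DMSO, at 6.58% of those higher with ATRA+POM than with DMSO, and at 12.9% (8.58 to 18.9) of the 163 higher with ATRA+POM than with POM.

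Part of the cell cycle genes ranked lower with both compounds together. Of 27 genes of DNA replication and the cell cycle, 11 were at least 25 points lower with ATRA+POM than with DMSO and 1 higher, 7 were lower and none higher than with POM, and 8 were lower and none higher than in the ATRA-labelled list. Over all regions 14.8, 8.75 and 15.5% ranked lower in these comparisons. The list's median differences were -19.3, -17.9 and -10.7 points, against -0.717, -0.155 and -0.402 over all regions and -4.44, -3.70 and -0.544 over the gene-end regions. With either compound alone the median against DMSO was -1.001 for the ATRA-labelled list and -0.874 for POM, which turned to 4.29 and 0.752 when ranked among gene-end regions alone. AURKB, the kinase of the chromosomal passenger complex, had 62.3, 28.2, 46.0 and 9.30, and CCNB1, the mitotic cyclin B1, 29.7, 20.5, 46.7 and 9.43. RFC1, the large subunit of the clamp loader, had 17.7, 18.4, 38.6 and 5.89. These 3 ranked at 35.7 or below with ATRA+POM and at 38.5 or above in the other lists. MCM5 (34.98, 26.4, 39.9 and 40.4), CDK2 (19.6, 19.1, 33.6 and 26.4) and CCNA2 (35.5, 31.0, 71.2 and 29.0) were not among the genes that ranked 25 points lower, and CDK2 was the 1 gene that ranked higher than with DMSO. A bulk profile cannot tell fewer cells with a signal from less signal per cell.

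Some of the 5 largest losses of rank with ATRA+POM in each comparison are described here, and they were picked from those losses for their known roles in cell division. H2AX, the histone variant marked at DNA breaks (chr11:119095732-119096733), had 40.7, 33.4, 40.8 and 4.88, with 670, 102, 359 and 50 reads. CEP55, which acts at the last step of cell division (chr10:93496613-93497320), had 28.2, 20.7, 45.1 and 4.07. RBL1, a relative of the retinoblastoma protein (chr20:37094005-37096821), had 40.0, 23.5, 44.1 and 5.02. CDCA8, the borealin subunit of the passenger complex, had 29.7, 31.4, 36.2 and 3.91, and LIN9 of the DREAM complex 59.0, 22.6, 46.6 and 6.18. In the 3 other lists these 5 regions ranked between 64.5 and 93.0, and with ATRA+POM between 2.93 and 16.4. The other large losses were at ZNF615, CA11 with DBP, RAB30 and MYL12B against DMSO, CA11, FLAD1 and TMX4 against the ATRA-labelled list, and YWHAH and FLAD1 against POM. YWHAH, a 14-3-3 protein, and FLAD1, an enzyme of FAD synthesis, had 4.58 and 5.41 with ATRA+POM after 52.6 and 46.1 with POM.

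Promoter elements at the regions that ranked lower with ATRA+POM than with POM (605 starts) differed in part from those of all 4449 starts. CCAAT boxes were found in 46.8% (42.8 to 50.8) against 40.1% (38.7 to 41.5) of all, while they were at 40.2% of the starts that ranked lower with ATRA+POM than with DMSO, 45.8% of those higher with POM than with DMSO and 49.4% of those higher in the ATRA-labelled list than with DMSO. The E2F site TTTCCCGC was found in 5.29% (3.77 to 7.37) against 3.19% (2.71 to 3.75). ISRE matches were found in 4.96% (3.50 to 6.99) against 6.90%. Of the 468 starts that ranked lower in the ATRA-labelled list than with DMSO, 28.2% (24.3 to 32.4) had a CCAAT box, and their median GC content was 67.3%. A second E2F site, GCGGGAA, and the cell cycle homology element TTTGAA were added after values were seen: they were found in 14.9% (12.3 to 17.9) and 12.9% (10.5 to 15.8) of the 605, and in 12.1 and 10.1% of the 4449. The 605 starts are contained in the 4449, the intervals cover counting error only, and a match says nothing of binding. The 4 CCAAT boxes of the H2AX sequence printed above lie next to the region of that gene and not inside it.

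**Figure D5:**
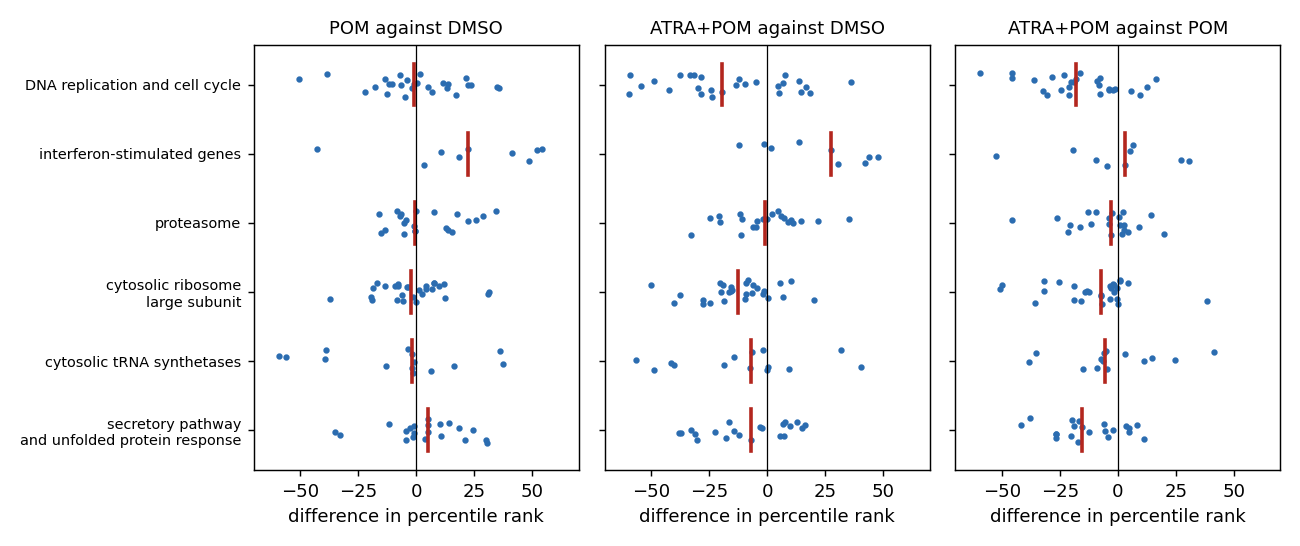
Difference in percentile rank between lists for the genes of 6 lists that have a narrow gene-end region (points, 1 per gene, spread vertically at random within a row) with the median of each list (red bar). For ATRA+POM against POM the bar of DNA replication and the cell cycle lies at -17.9 and that of the proteasome at -2.87, and for POM against DMSO that of interferon-stimulated genes lies at 22.1.

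Other gene groups held both regions that kept their rank and regions that did not. Of 22 proteasome genes, 3 ranked higher and none lower with POM than with DMSO, a share of higher ranks like the 13.7% of all regions, and the median difference was -0.486 with POM and -0.947 with ATRA+POM. PSMD14, the deubiquitinase of the lid, had 18.5, 16.8, 39.7 and 23.2, while PSMD8 had 19.6, 13.8, 26.6 and 5.47. Of 28 genes of the large ribosomal subunit, 5 ranked lower and none higher with ATRA+POM than with DMSO, with a median difference of -12.4 (-0.717 over all regions, of which 14.8% ranked lower), and RPL35 (48.3, 33.2, 59.6 and 9.87) was among the 5. Of 21 genes of the secretory pathway and unfolded protein response, 5 ranked lower and none higher with ATRA+POM than with POM, with a median of -15.5 (-0.155 over all regions, of which 8.75% ranked lower). SSR1, a subunit of the translocon-associated complex, had 21.0, 27.9, 42.8 and 9.53, and DDIT3, the stress factor CHOP, 42.0, 22.2, 57.7 and 12.7. In the BCL2 family BAK1 (49.1, 44.9, 46.9 and 30.9) and BAD (59.6, 34.4, 82.9 and 49.8), both drivers of apoptosis, ranked at 81.4 or above in each list, and BCL2, which blocks it, had 20.3, 17.8, 22.8 and 7.60.

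Of the cereblon and drug substrate list 8 of 17 genes (47.1%) and of the retinoid list 5 of 22 (22.7%) had such a region, against 30.3% of all genes. NRIP1, a corepressor of ligand-bound nuclear receptors and a known retinoid-induced gene, had 6.96, 5.62, 22.9 and 17.7, with 41, 9, 98 and 82 reads, and ranked at 3.25, 2.67, 50.02 and 65.1. The 2 lists with POM placed it 46.8 points (POM against DMSO) and 62.5 points (ATRA+POM against the ATRA-labelled list) higher, and ATRA against DMSO differed by -0.580. NCOR1, a corepressor of unliganded receptors, had 10.97, 9.90, 18.2 and 13.6. DDB1, the adaptor of the cereblon ligase, had 18.4, 10.0, 39.1 and 24.1, and CUL4A, its scaffold, 20.6, 8.94, 10.5 and 4.77. Both partners thus stood at like values with DMSO, at ranks of 40.7 and 47.1, and apart with POM, at 74.5 and 16.8. CSNK1A1, a kinase that a related drug degrades, had 46.8, 23.96, 70.04 and 15.5, and the RING subunit RBX1 46.0, 32.5, 33.4 and 22.4.

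In the ATRA-labelled list the shifts rested on few reads. The 5 regions with the largest loss of rank against DMSO, at C9orf78, SLC25A10, NPRL3, ENO1 and MAOA, had 7 to 12 reads at the summit there. At ENO1, the glycolytic enolase, the fold enrichments were 35.2, 8.19, 16.9 and 10.9 and the reads 188, 12, 57 and 36. The 5 with the largest gain, RFX1, DEXI with CIITA, MAF, UXT with ELK1 and OR51B5, had 32 to 93. MAF, a transcription factor of a myeloma subgroup (chr16:79599411-79600843), had 16.8, 33.8, 19.3 and 17.3 with 495, 93, 518 and 253 reads. The part of depth in these shifts was not tested.

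With ATRA+POM the largest gains over POM included FCRL2, an Fc receptor-like protein of B cells (10.5, 7.74, 10.9 and 22.2), ZNF717, SERPINA7 (6.89, 4.73, 6.14 and 14.0) and AKTIP. FCRL2 ranked at 13.5, 14.6, 18.1 and 74.6, with 283, 34, 375 and 759 reads. PIK3CG, a catalytic PI3-kinase subunit of blood cells, had 10.95, 9.04, 20.9 and 40.5 and ranked at 15.1, 23.5, 45.6 and 91.9. At both genes the ATRA+POM list alone placed the region above the median rank.

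The limits of the rule cut through a continuous range. Just inside the width limit lay DGKA (2996 bp), CNOT6L (2992 bp) and H4C2 (2988 bp), and just outside it PDIK1L (3009 bp), FMC1-LUC7L2 (3012 bp) and RBM7 (3013 bp). DGKA had fold enrichments of 31.3, 22.9, 61.9 and 20.3, and PDIK1L 49.1, 43.6, 57.7 and 13.5. KDM6A, AUP1 and MDH1 had their midpoint 1000 bp from an end, and GATAD1 (1001 bp), ELK4 (1002 bp) and ULK1 (1002 bp) were left out. KDM6A had 47.6, 24.4, 48.4 and 33.3, and GATAD1 18.8, 6.29, 14.7 and 11.6. The median distance from the nearest end was 453 bp, and 3511 regions lay within 500 bp. Also inside these regions lay 39 of 1562 microRNA hairpins of the RefSeq table, such as MIR611 at FEN1.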

How the data were processed

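ChIP-seq peaks of OPM-2 cells were taken from 4 deposited lists, 1 per treatment, each with an input library and no replicate. The build is hg38, per the submitters' processing notes. Which antibody, aligner and peak caller were used is not given in the sources used here. Columns are not named in the deposited lists, and their meaning was read from their values and order. Each deposited peak carries the authors' score, their fold enrichment over local background (a ratio), their −log10 p and −log10 q, and the offset of its summit in bp. All were called per library, with no scaling between libraries in the deposited values.

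Peaks were merged at 1 bp of overlap, gene ends came from the RefSeq gene table and promoters from the RefSeq table of GRCh38.p14. The strongest peak by fold enrichment stood for a region in each list. Reads at a summit were recovered from fold and −log10 p under a Poisson model, and came out whole within 0.02 for 93.9% of regions in the ATRA-labelled list and 100% in the others. Percentile ranks were taken over the 19384 regions called in all 4 lists. No treatment was tested. Intervals (Wilson for shares, binomial order statistics for medians) cover counting error only. Motif matches were exact, on both strands.

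The regions and gene lists were chosen with earlier results of these data known. Named were 16 fixed genes, the 10 regions with the highest lowest rank and the 5 with the lowest highest rank over the 4 lists. Also named were the 5 largest rank differences in each direction of each pair and up to 4 top-ranked genes per list. The regions beside each limit and the regions at most genes were named too. Other list genes named in the text were chosen after their values were seen. Some genes that this rule names are not reported here. Alternatives changed the peak strength, overlap, width, distance, statistic, shift size and ranking set. Merging, read recovery and ranking were tested on simulated data: 2308 regions equalled those of bedtools, and 100% of 200 planted rank gains were found. The planted gains were large beside the simulated noise, so this checks the code and not how shifts behave in these lists. Python 3.11.15, numpy 2.4.6, pandas 2.3.3, scipy 1.17.1 and matplotlib 3.10.9 were used.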

Additional observations from a re-analysis of the deposited data

Results flagged for a closer look

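At 52 of the 6187 regions the DMSO-to-POM and the ATRA-labelled-to-ATRA+POM rank differences were both at least 25 points and opposite in sign. How many of all 19384 regions did the same is not given, so the 52 have no background to be read against. Of these, 31 ranked higher with POM alone and lower with both compounds, and 21 the other way round. YWHAH ranked at 42.0 (DMSO), 60.2 (ATRA-labelled), 85.3 (POM) and 6.08 (ATRA+POM). RYBP, a Polycomb component, ranked at 23.03, 61.9, 50.96 and 2.45 in the same order, and the clamp loader gene RFC1 at 38.5, 62.3, 74.0 and 14.4. Summit reads with DMSO and POM were 239 and 227 at YWHAH, 162 and 119 at RYBP, and 254 and 243 at RFC1. Their higher rank with POM thus came without more reads, which were not scaled between libraries. MAOA, a monoamine oxidase, ranked at 70.4, 12.7, 21.9 and 49.7, with 10 reads in the ATRA-labelled list. With 1 library per treatment this difference between the comparisons was not tested.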

How the results depend on the processing

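No paired analysis was possible because each treatment had 1 library and the labels carry no replicate numbers. Leaving out 1 list at a time gave 6538 to 7167 regions, the stronger 50% of each list gave 3242, and a limit of 500 bp gave 3511. In the order ATRA-labelled against DMSO, POM against DMSO, ATRA+POM against DMSO, against POM and against the ATRA-labelled list, higher and lower ranks were as follows. By −log10 q they were 60 and 84, 284 and 299, 239 and 653, 48 and 351, and 310 and 737. With a shift of 15 points they were 640 and 1397, 1285 and 1287, 950 and 1868, 658 and 1586, and 1322 and 1484. With a shift of 35 points they were 26 and 218, 250 and 272, 199 and 491, 68 and 313, and 306 and 388. Shares over all regions are not given for these settings. Ranked among gene-end regions alone, 471 were higher for the ATRA-labelled list against DMSO, 836 for ATRA+POM against DMSO and 563 for ATRA+POM against POM. The mean over the peaks of a region gave median fold enrichments of 21.8, 12.5, 22.0 and 10.4 (DMSO, ATRA-labelled, POM, ATRA+POM). The DMSO summit in place of the midpoint put 95.6% nearest to a start. Regions with 1 peak in every list had median summit distances of 25 (DMSO and ATRA-labelled), 23 (DMSO and POM), 28 (DMSO and ATRA+POM), 33 (ATRA-labelled and POM), 36 (ATRA-labelled and ATRA+POM) and 21 bp (POM and ATRA+POM). With the summit inside the promoter, the difference in motif share from all starts turned to 1.38 points for ISRE and -3.80 for the CTCF core, and for the Ikaros motif it was -0.429 against starts with no peak. The cell cycle list turned to 4.29 (ATRA-labelled against DMSO) and 0.752 (POM against DMSO) ranked among gene-end regions alone, and interferon-stimulated genes to -4.36 for ATRA+POM against POM by −log10 q. The cause of these changes was not tested. Depth limits the ATRA-labelled list most, with a median of 27 reads at the summit.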
